A study of Mus musculus with 18 samples.

Results

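Early oligodendrocyte progenitors made up 169 of the 202440 nuclei that were within the limits on depth in single-nucleus RNA sequencing of the embryonic day 14 mouse forebrain, a share of 0.0835%. A nucleus was counted as a member when it held at least 1 unique molecular identifier (UMI, 1 counted RNA molecule) of Pdgfra or Sox10, at least 1 of Olig1 or Olig2, and none of Col3a1, Neurod2, Neurod6 or Gad2. It also had to carry 800 to 6000 UMIs, 300 to 3000 genes and at most 1% mitochondrial UMIs. The members were thus chosen by the counts of these 8 genes and by the limits on depth and mitochondrial UMIs. Levels of the 8 genes are given as a description.

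The forebrains came from matings of heterozygous mice of the line C57BL/6-Myt1l em1Jdd/J, from 3 litters with both sexes, after removal of the meninges. The mutant allele is a germline frameshift, S710fsX, so it is present in every cell of the animal, and no allele or treatment other than genotype separates the groups. Wild type (WT), heterozygous (Het) and homozygous mutant (KO) embryos numbered 3 each, and every embryo was sequenced in 2 runs that were summed here. Genotypes were taken from the sample titles, since the genotype field of the 9 first-run libraries reads WT throughout. Total counts per library ran from 25300676 to 93334845 UMIs. The members together held 559482 UMIs, from 20720 in KO 1 to 85513 in KO 3, so a gene seen in 3 molecules of the pooled members has a level of 5.36 CPM (counts per 1000000 UMIs).

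Oligodendrocyte progenitors are the glial cells that divide and later give rise to the myelinating oligodendrocytes. In the forebrain the earliest ones arise in ventral domains, among progenitors that express Olig2, and then express Olig1, Sox10 and the receptor Pdgfra, which binds platelet-derived growth factor. MYT1L is a zinc-finger transcription factor of neurons, whereas its paralog MYT1 is known from the oligodendrocyte lineage.

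The promoters of 3 genes that define or lead the group are shown because Pdgfra and Olig2 stand on the 2 sides of the rule and Cspg4, the NG2 proteoglycan of oligodendrocyte progenitors, is the first of the 15 leading genes described below, none of which is in the rule. Each sequence is the 250 bases before the RefSeq start on build GRCm38.p6, plus strand, at chr5:75152001-75152250 for Pdgfra, chr16:91225300-91225549 for Olig2 and chr9:56864854-56865103 for Cspg4. Capitals mark matches on either strand to ACAATG or to ACAAAG, which are SOX motifs, to CAGATG, or to CAGCTG, which reads alike on both strands. The motifs CAGATG and CAGCTG are E-boxes of basic helix-loop-helix factors such as the OLIG proteins.
Pdgfra: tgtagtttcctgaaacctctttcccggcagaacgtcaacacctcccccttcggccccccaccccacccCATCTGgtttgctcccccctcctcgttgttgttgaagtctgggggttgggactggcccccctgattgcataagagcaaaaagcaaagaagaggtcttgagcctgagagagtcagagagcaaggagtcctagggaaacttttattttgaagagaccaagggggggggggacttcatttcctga
Olig2: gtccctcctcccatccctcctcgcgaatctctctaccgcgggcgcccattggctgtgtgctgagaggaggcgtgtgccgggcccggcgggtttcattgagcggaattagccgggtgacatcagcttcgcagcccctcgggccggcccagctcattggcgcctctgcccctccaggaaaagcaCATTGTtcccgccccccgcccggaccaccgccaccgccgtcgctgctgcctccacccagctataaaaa
Cspg4: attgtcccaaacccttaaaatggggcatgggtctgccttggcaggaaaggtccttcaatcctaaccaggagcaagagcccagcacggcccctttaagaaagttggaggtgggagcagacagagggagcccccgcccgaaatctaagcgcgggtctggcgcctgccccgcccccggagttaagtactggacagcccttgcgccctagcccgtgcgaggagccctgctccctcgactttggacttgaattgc
Pdgfra held CAGATG, read as CATCTG, 182 bases before the start, and Olig2 held ACAATG, read as CATTGT, 68 bases before it. Cspg4 held none of the 4 in this window. Across 32851 promoters of the same length, CAGATG was present in 14.4%, CAGCTG in 13.0%, ACAAAG in 16.5% and ACAATG in 10.7%. Promoters were listed for 11 of the 15 leading genes described below. These 11 genes had 16 promoters, of which 5 held CAGATG (of Arhgef3, Dock10 and Serpine2), 4 CAGCTG, 2 ACAAAG and 1 ACAATG.

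Pdgfra was the gate gene met most often. It was detected in 164 of the 169 members, Olig1 in 108, Olig2 in 103 and Sox10, the transcription factor of neural crest and oligodendroglia, in 57. Olig1 and Olig2 were found together in 42 members, and all 4 genes in 15. In 37 members each side of the rule rested on fewer than 2 UMIs, whereas 132 members held 3 or more UMIs over the 4 genes and 81 held more than 2 UMIs of Pdgfra. The level of Pdgfra in members was 785, 958 and 1439 CPM in WT, 1149, 1099.6 and 1038 in Het, and 1104, 1109.9 and 1453 in KO, against 2.28 to 3.62 CPM in the other nuclei of the 9 embryos. Members held a median of 3195 UMIs and 1843 genes, against 2566 UMIs and 1456 genes in the other nuclei.

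Free RNA can give single UMIs in nuclei that do not express a gene. In 65912 nuclei with Neurod2 or Neurod6, genes of excitatory neurons, 0.373% held Pdgfra or Sox10, 0.499% held Olig1 or Olig2 and 0.0273% held both, at a median of 2980 UMIs. In 62434 nuclei with Gad2, a gene of inhibitory neurons, 0.626%, 0.790% and 0.0416% did so, at a median of 2644 UMIs. The nuclei that held both are among the 41 excluded nuclei described next. These shares are thus no rate of free RNA alone, and the part of free RNA in them was not tested. Nuclei just outside the rule were of 3 kinds. There were 1063 nuclei with Olig1 or Olig2 but neither Pdgfra nor Sox10, 443 nuclei with Pdgfra or Sox10 but neither Olig gene, and 41 nuclei that met both sides but also held an excluded gene. Cspg4, which the rule did not use, stood at 372 CPM in members, 253 CPM in those 41 nuclei, 94.9 CPM in the nuclei with Pdgfra or Sox10 alone and 9.45 CPM in the nuclei with Olig1 or Olig2 alone. The Olig nuclei outside the rule thus carried little of this progenitor gene, while the 41 excluded nuclei carried a level closer to that of members.

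The label was set beside marker lists, some of whose values the rule fixes. All 14 genes of an oligodendrocyte progenitor list, 4 of them rule genes, were detected, 12 of them in at least 5% of members, and their summed level was 13305 CPM in members against 1239 CPM in the rest. Of 7 microglia and macrophage markers only P2ry12 and Cx3cr1 had a UMI, and Csf1r, C1qa, C1qb, Ptprc and Mrc1 did not reach 1. The fibroblast and mural list, whose Col3a1 the rule sets to 0, summed to 8.94 CPM in members against 15.7 CPM in the rest. The endothelial list summed to 13.107 CPM against 12.002 CPM, and the ependymal and choroid list to 16.1 CPM against 10.4 CPM. A neural crest, Schwann and ensheathing glia list was higher in members, at 269.9 CPM against 23.5 CPM. Its Foxd3 was at 0, and it shares Sox10, a rule gene, and Erbb3 with oligodendroglia. Its Cdh19, a cadherin of Schwann cell precursors, was found in 24 members, at 73.3 CPM against 1.5 CPM, higher in all 9 embryos. Inhibitory progenitor markers summed to 288 CPM against 220.2 CPM and diencephalic neuron markers to 237 CPM against 119 CPM, with Gbx2 and Shox2 at 0. Most of the diencephalic sum in members was Tcf7l2, which is also on the list of oligodendrocyte lineage transcription factors. In the 2 groups of members described below, Tcf7l2 was found in 49 of 104 and 34 of 65 nuclei, and Lhx9 in 1 nucleus of each. Excitatory neuron markers, of which the rule sets Neurod2 and Neurod6 to 0, summed to 169 CPM in members and 1458 CPM in the rest. Of the inhibitory neuron list, whose Gad2 the rule sets to 0 and which summed to 4951 CPM in members and 3613 CPM in the rest, Erbb4, a neuregulin receptor that was also high in members, made up most, while Gad1 stood at 5.36 CPM and Dlx6 at 0. Cajal-Retzius markers, of early cortical neurons, summed to 152 CPM in members and 459 CPM in the rest. They ran from 25.9 to 902 CPM over the WT embryos, from 31.5 to 64.6 CPM over the Het embryos and from 0 to 48.8 CPM over the KO embryos. Radial glia markers summed to 1803 CPM against 543 CPM.

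Members carried the surface and matrix genes of oligodendrocyte progenitors, lower levels of most neuronal genes than the rest, and little of mature myelin. Of 7392 genes past a mean level of 20 CPM over members and the rest, without the rule genes, 530 (7.17%) were higher in members in all 9 embryos and 783 (10.6%) were lower in all 9. These directions follow from how members were picked, so no test was made. The 15 leading genes were those of at least 50 CPM in members and higher in all 9 embryos that had the highest ratio of pooled levels, 1 CPM added to each: Cspg4, Col19a1, Moxd1, Bcas1, Pstpip2, Shc4, Serpine2, 9330188P03Rik, Car8, Stard13, Dock10, Arhgef3, Inka2, Tril and Prkcq.

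Cspg4 (ENSMUSG00000032911.6, chromosome 9, 56865033 to 56899870) had 347, 451 and 220.3 CPM in the members of the WT embryos, 271, 293 and 425 CPM in Het and 624, 391 and 455 CPM in KO. The other nuclei had 1.49 to 3.65 CPM, 2.32 CPM when pooled, against 372 CPM in the pooled members. Col19a1 (ENSMUSG00000026141.13, chromosome 1, 24261890 to 24587472), a collagen gene, had 730.1, 1125 and 745 CPM in WT, 1298, 775 and 991 CPM in Het and 1531, 1055 and 735 CPM in KO. The other nuclei held 6.45 to 12.3 CPM of it. Neither gene was at a background level in any embryo, and the ranges of members and of all other nuclei stood far apart. Nuclei just outside the rule stood nearer. Col19a1 was at 674 CPM in the nuclei with an excluded gene and at 348 CPM in those with Pdgfra or Sox10 alone. It was at 9.73 CPM in those with Olig1 or Olig2 alone. Serpine2, a secreted protease inhibitor, ran from 252 to 525 CPM in members and from 8.56 to 13.7 CPM in the rest. Dock10, a guanine nucleotide exchange factor, ran from 661 to 1259 CPM against 20.3 to 27.1 CPM. In the nuclei with an excluded gene Serpine2 was at 408 CPM and Dock10 at 555 CPM. In those with Pdgfra or Sox10 alone they were at 110 CPM and 225 CPM. These levels are thus not particular to members. Bcas1, known from oligodendrocytes that are starting to make myelin, was found in 49 members and ran from 65.1 to 310.1 CPM against 1.29 to 2.42 CPM.

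**Figure D1:**
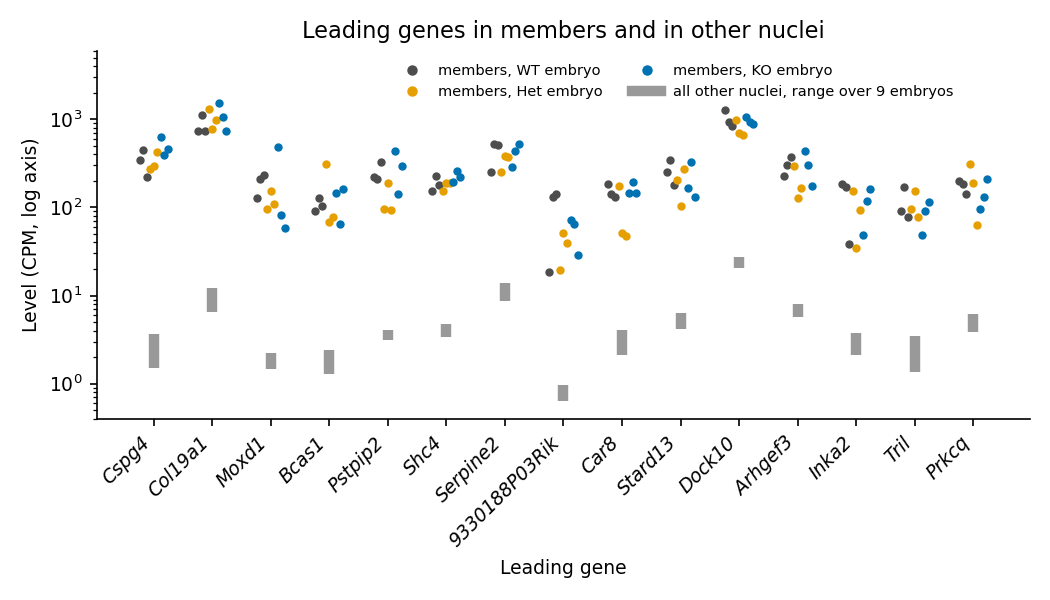
Level of the 15 leading genes in CPM (log axis). Points are members of 1 embryo, coloured by genotype, and grey bars span the other nuclei of the 9 embryos. For every gene all 9 points lie above the grey bar, as the choice of genes requires.

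Of the 25 surface and matrix genes of the progenitor list past that level, 18 were higher in all 9 embryos and 2 were lower in all 9, with a median log2 ratio of 2.43 against 0.07 over all genes. Gpr17, a receptor of committed oligodendrocyte precursors, was present in 39 members at 96.5 CPM against 0.243 CPM in the rest, with 0 CPM in WT 1. Lhfpl3 (5128 to 9215 CPM against 249 to 368), Pcdh15, a protocadherin (2145 to 3538 CPM against 359 to 477), Bcan, the matrix proteoglycan brevican (213 to 429.7 CPM against 18.3 to 23.2), and Ptprz1, a receptor phosphatase (3723 to 5981 CPM against 758 to 936), were each above the rest in every embryo. Vcan, the proteoglycan versican, stood at 531 CPM in members and 535 CPM in the rest, and Sema5a, a semaphorin, was lower in members, at 84.9 CPM against 379.8 CPM.

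Transcription factors of the lineage were divided. Of 16 past the level, 6 were higher and 6 lower in all 9 embryos, beside 7.17% and 10.6% of all genes. Sox9, a factor of glial specification, was at 218 CPM against 35.0 CPM. Zeb1, a zinc-finger factor of progenitors, was at 1974 CPM against 390.4 CPM, and Sox6 at 4210.3 CPM against 1206 CPM. Nkx2-2, which acts in the passage from progenitor to oligodendrocyte, was found in only 16 members, at 34.0 CPM against 0.359 CPM. Nfib and Nfix, nuclear factor I genes that neurons and radial glia also express, were lower, at 1458 CPM against 3124 CPM and at 107 CPM against 298 CPM.

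Growth factor signalling genes varied. Of 14 receptor tyrosine kinase pathway genes past the level, 5 were higher in all 9 embryos and 1 was lower, beside 7.17% and 10.6% of all genes. Egfr, the epidermal growth factor receptor, was at 369.8 CPM against 11.0 CPM but at 0 CPM in KO 1. Erbb3, a neuregulin receptor, was found in 15 members. The ERK targets Etv5 and Spry2 were at 141 CPM and 66.1 CPM against 14.6 CPM and 5.72 CPM. In the hedgehog list none of 8 genes was higher in all 9 embryos and 2 were lower, and Ptch1, the hedgehog receptor and target, was at 268 CPM against 62.1 CPM, with 48.0 CPM in KO 1. In the Notch list 1 of 9 was higher in all 9 embryos, Notch1, at 198 CPM against 102 CPM.

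Myelin genes were mostly absent. Of 16 listed, 5 passed the level, of which Bcas1, Itpr2, Ugt8a and Fyn were higher in all 9 embryos and Tmem108 was lower. Itpr2, a calcium channel of the endoplasmic reticulum, was at 152 CPM against 7.36 CPM, and Ugt8a, an enzyme of galactolipid synthesis, at 81.6 CPM against 8.25 CPM. Mbp, myelin basic protein, stood at 21.4 CPM against 17.2 CPM. Mag, Mog, Mobp, Opalin and Enpp6, genes of mature or myelinating oligodendrocytes, had no UMI among the members, in which 3 molecules would be 5.36 CPM.

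Members shared many genes with radial glia, the neural stem cells. Of 13 radial glia genes past the level, 8 were higher in all 9 embryos and 1 was lower, beside 7.17% and 10.6% of all genes. Fabp7, a fatty acid binding protein, was at 202 CPM against 24.1 CPM, and Slc1a3, a glutamate transporter, at 708 CPM against 165 CPM. Of 15 neuronal genes, 13 were lower in all 9 embryos, with a median log2 ratio of -2.43. The rule leaves out nuclei with Neurod2, Neurod6 or Gad2, so lower neuronal genes follow in part from it. Elavl3, a neuronal gene, was still found in 42 of 104 and 28 of 65 nuclei of the 2 groups described below. Only 86 members held none of 21 neuron, vascular and immune genes. The synaptic vesicle protein Syt1 was at 148 CPM against 912 CPM, the RNA-binding protein Rbfox3, known as NeuN, at 34.3 CPM against 309 CPM, and Dcx, of young migrating neurons, at 118 CPM against 552 CPM. Map2, a dendritic microtubule protein, was found in 164 members, at 1699.9 CPM against 1712 CPM, lower in 6 of 9 embryos. Regional genes were sparse. Nkx2-1, of the medial ganglionic eminence and preoptic area, was found in 27 members and was at 57.2 CPM against 20.6 CPM. All 4 dorsal and diencephalic genes past the level were lower in all 9 embryos, among them the cortical factor Lhx2, at 27.7 CPM against 106 CPM, while 2 of 5 ventral genes, among them Lhx6, were lower and none was higher. The lowest gene in members was Rspo3, a secreted Wnt potentiator, with no UMI in members against 74.9 CPM in the rest. That is 13.97-fold the 5.36 CPM of 3 molecules in the pooled members, a chosen floor that leaves out the spread between embryos. The others of the 10 lowest were Dlx6os1, Ndst3, Kcnn3, B020031H02Rik, Gad1, Adamts18, Prmt8, Abcc8 and Cpne4.

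Cycling genes were frequent in members. Depth differs between sets of nuclei, so each nucleus was thinned to 1500 UMIs, and 14 members with fewer were left out. At that depth 100 of 155 members (64.5%, 95% exact binomial interval 56.4% to 72.03%) held at least 2 UMIs over 20 genes of the G2/M phase, against 26.5% of the other nuclei. Nuclei with Olig1 or Olig2 alone had a share of 69.9%, those with Pdgfra or Sox10 alone 50.1%, those with Gad2 20.2% and those with Neurod2 or Neurod6 15.2%. The same share for S-phase genes was 62.6% in members and 24.2% in the rest. Without thinning, the G2/M share was 73.4% in members and 33.5% in the rest. Intervals cover counting error only. Of 19 G2/M genes past the level, 3 were higher in members in all 9 embryos and 0 were lower, with a median log2 ratio of 1.18. Of 15 S-phase genes, 3 were higher and 0 lower, with a median of 1.20. Over all genes past the level, 7.17% were higher and 10.6% lower, with a median of 0.07. Pola1, the catalytic subunit of DNA polymerase alpha, ran from 455 to 703 CPM in members against 233 to 293 CPM in the rest. Mki67, a marker of dividing cells, ran from 395 to 1063 CPM in members against 196 to 372 CPM in the rest, and Top2a, the mitotic topoisomerase, from 310.2 to 1008 CPM against 258 to 371 CPM. Neither the G2/M counts nor the S-phase counts assign a phase to a nucleus, and free RNA as a part of them was not tested.

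**Figure D2:**
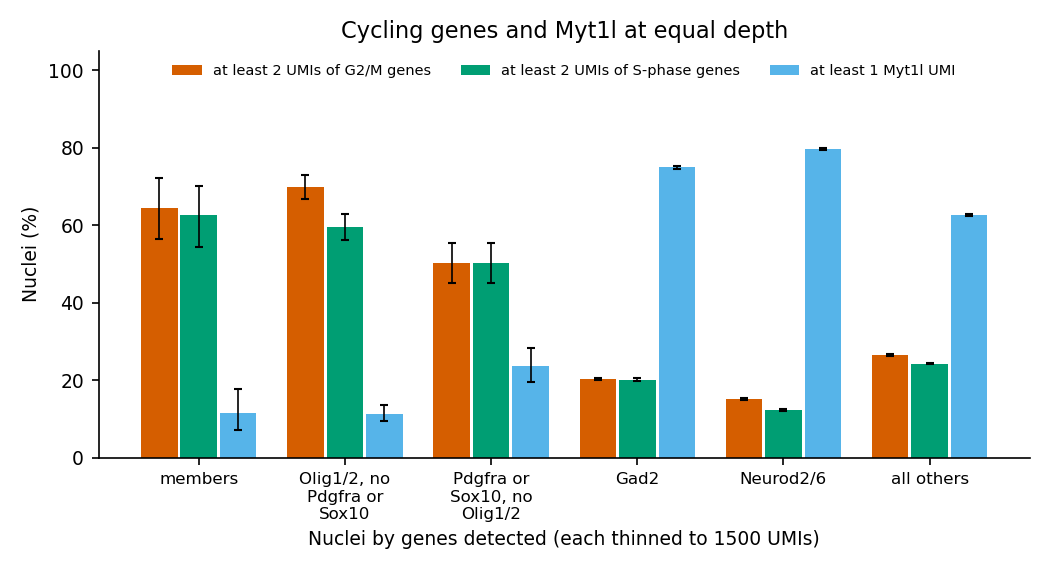
Percent of nuclei, each thinned to 1500 UMIs, with at least 2 UMIs of G2/M genes, at least 2 UMIs of S-phase genes or at least 1 Myt1l UMI, in members and in 5 other sets of nuclei named by the genes detected. Bars are pooled over the 9 embryos and error bars are 95% exact binomial intervals. Members and the Olig nuclei outside the rule show high bars for cycling genes and low bars for Myt1l, and the Gad2 and Neurod nuclei show the opposite.

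Myt1l, the mutated gene, was low in members. It was detected in 36 of them and stood at 126 CPM, against 1229 to 1578 CPM over the other nuclei of the 9 embryos. At 1500 UMIs, 11.6% of members (7.03% to 17.7%) held a Myt1l UMI, close to the 11.4% of Olig nuclei outside the rule, against 62.7% of the rest and 79.7% of Neurod nuclei. The level in members was 219, 113 and 107 CPM in WT, 25.8, 207 and 259.6 CPM in Het, and 0, 71.6 and 81.6 CPM in KO. The WT and KO embryos did not overlap, although the value of 0 in KO 1 rests on 20720 UMIs, at which 3 molecules would be 144.8 CPM. How many of all genes separate WT from KO likewise was not counted. The log2 difference of KO from WT was -0.998 (SE 0.69, edgeR adjusted p = 0.998) and that of Het from WT 0.20 (SE 0.59, edgeR adjusted p = 0.993), neither past the threshold. Since the allele is a frameshift, these RNA levels are no test of the genotypes. Myt1 was at 231 CPM in members and 141 CPM in the rest and was higher in all 9 embryos. At 1500 UMIs, 23.9% of members (17.4% to 31.4%) held a Myt1 UMI. The share was 17.7% in the rest, 22.1% in Gad2 nuclei, 19.1% in Neurod nuclei and 11.7% in Olig nuclei outside the rule. Of the 2 groups of members described below, the larger held Myt1 at 336 CPM (61 of 104 nuclei) and the smaller at 53.1 CPM (9 of 65). St18, the third gene of the family, was at 9.83 CPM in members against 96.0 CPM. The cofactors Kdm1a and Rcor2 were lower in all 9 embryos.

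The next question was whether the share of members differed with Myt1l genotype. WT 1, WT 2 and WT 3 had 19, 21 and 25 members, or 0.0804%, 0.0790% and 0.121% of their nuclei. The Het embryos had 17, 18 and 18 members (0.0683%, 0.0949% and 0.0899%), and the KO embryos 6, 19 and 26 (0.0391%, 0.0756% and 0.0960%). KO 1 was the lowest, with an exact interval of 0.0143% to 0.0850%, and it overlapped the intervals of all other embryos. The 3 WT embryos averaged 0.0933% ± 0.0236, the 3 Het embryos 0.0844% ± 0.0141 and the 3 KO embryos 0.0702% ± 0.0288 (mean ± SD). KO differed from WT by -0.0231 percentage points (exact permutation test, two-sided, p = 0.4) and Het from WT by -0.00894 points (exact permutation test, two-sided, p = 0.7). With 3 against 3 embryos the smallest p is 0.1, so the design could not reach a threshold of 0.05. Over all 3 genotypes an exact permutation test of 1680 assignments gave p = 0.571. Without KO 1 the difference of KO from WT was -0.00752 points. Within run 1, which held 32 members, KO differed from WT by -0.00387 points and Het from WT by 0.0508 points. Within run 2, which held 137 members, the differences were -0.0267 and -0.0238 points. The direction of the Het difference thus turned between runs. It also turned without WT 3, to 0.00467 points. The titles do not tie the replicate number to a litter. Paired by that number, KO was below WT in 3 of 3 pairs and Het in 2 of 3. With the number as a block the exact permutation p was 0.25 for KO, the smallest that 3 pairs allow, and 0.75 for Het.

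**Figure D3:**
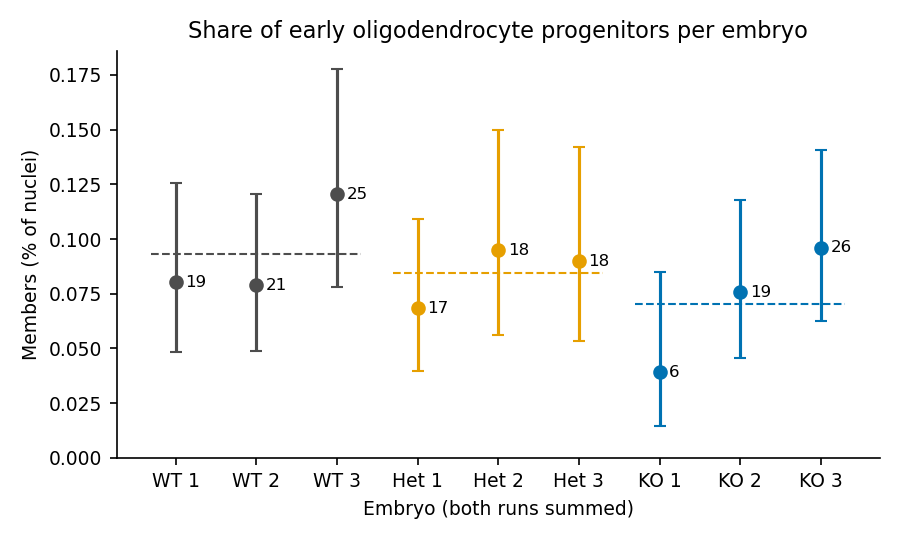
Members as percent of nuclei in each embryo, both runs summed. Points carry the number of members and 95% exact binomial intervals, and dashed lines are genotype means. The 9 intervals overlap, and KO 1, with 6 members, is the lowest point.

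The share of members with at least 2 G2/M UMIs was 78.9%, 61.9% and 76.0% in WT, 82.4%, 77.8% and 72.2% in Het, and 100%, 84.2% and 53.8% in KO. The 3 KO embryos thus spanned a range wider than that of WT and Het together. KO differed from WT by 7.07 percentage points (exact permutation test, two-sided, p = 0.7) and Het from WT by 5.17 points (p = 0.6 by the same exact test). Without KO 1, whose 6 members were all positive, the KO difference was -3.26 points. Within run 1 the differences were -2.78 points for KO and -7.94 points for Het, and within run 2 they were 7.15 and 9.89 points, so the directions turned between runs.

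No gene was called different between genotypes in members. Of 1677 genes tested with edgeR, 0 (0.0%) were called in KO against WT and 0 (0.0%) in Het against WT, at a Benjamini-Hochberg adjusted p under 0.05 and a log2 difference beyond 0.2. At an unadjusted p under 0.05 there were 86 and 97 genes, and DESeq2 called 0 in each contrast, with 34 and 36 genes at an unadjusted p under 0.05. Both contrasts share the 3 WT embryos. The 22 surface and matrix genes tested gave 12 estimates above and 10 below 0 in KO, with a median of 0.07, and 7 above and 15 below 0 in Het, with a median of -0.16. Over all genes tested the medians were 0.01 and 0.00. The Het direction turned between runs, with 1 above and 10 below 0 in run 1 (median -0.40) and 13 above and 7 below 0 in run 2 (median 0.19). The KO direction turned as well, with 5 above and 6 below 0 in run 1 (median -0.12) against 14 above and 6 below 0 in run 2 (median 0.11), and 9 above and 13 below 0 without WT 1 (median -0.07). Of 13 G2/M genes tested, 12 estimates were above 0 in KO, with a median of 0.83, and 9 were above 0 in Het, with a median of 0.45. The unadjusted p was under 0.05 for 6 of these 13 genes in KO and for 0 in Het, and none passed the adjusted test. Mki67 was at 639, 395 and 1063 CPM in WT, 698, 793 and 755 CPM in Het and 768, 1016 and 851 CPM in KO, a log2 difference of KO from WT of 0.35 (SE 0.30, edgeR adjusted p = 0.998). The groups overlapped, and the estimate was 0.04 without WT 2 and 0.80 without WT 3. Without KO 1, 11 of 13 G2/M estimates were above 0, with a median of 0.62, and without WT 3 it was 15 of 15, with a median of 1.25. For Het the G2/M median was 0.11 without WT 2, 0.21 without Het 1 and 0.05, with 5 of 10 above 0, in members with at least 3 gate UMIs. It was -0.41 in run 1 and -0.37 without members holding neuron, vascular or immune genes, each over 2 genes, and 0.31 over 11 genes in run 2. Of 10 lineage transcription factors tested, 8 estimates were above 0 in KO (median 0.28) and 7 in Het (median 0.25). Of 9 neuronal genes, 2 were above 0 in KO (median -0.23) and 6 in Het (median 0.26).

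Of the gate genes, Sox10 had 256, 183 and 207 CPM in WT, 213, 86.2 and 62.9 CPM in Het and 96.0, 104 and 117 CPM in KO. The 3 KO embryos were below the 3 WT embryos, while Het 1 was among WT. Olig1 had 237, 310.1 and 389 CPM in WT, 174, 224 and 173 CPM in Het and 240.0, 195 and 257 CPM in KO. All Het embryos were below WT, and KO overlapped WT. Olig2 had 155, 113 and 311 CPM in WT, 252, 276 and 315 CPM in Het and 384, 182 and 362 CPM in KO, so its groups overlapped. Members were picked by these genes, and Olig1 and Olig2 can stand in for each other in the rule. Their levels are thus a description with no test, and the share of all genes that separate the embryos likewise was not counted.

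The 5 genes with the lowest p in KO did not pass the test. Being picked by p, such genes tend to separate the embryos of the groups compared. How many of all genes tested separate them likewise was not counted. Fign, a microtubule-severing enzyme of the fidgetin family, was at 54.8, 113 and 64.8 CPM in WT, 245, 139 and 205 CPM in Het and 432, 169 and 257 CPM in KO. All mutant embryos were above the 3 WT embryos, and the log2 difference of KO from WT was 1.63 (SE 0.45, edgeR adjusted p = 0.863). Schip1, a protein of the axon initial segment and node, was at 575, 794 and 531 CPM in WT, 397, 234 and 259.6 CPM in Het and 400.0, 391 and 175 CPM in KO. It was below WT in every mutant embryo, with log2 differences of -1.09 in KO (SE 0.33, edgeR adjusted p = 0.863) and -1.15 in Het (SE 0.32, edgeR adjusted p = 0.693). Without the upper limits on UMIs and genes, the KO difference of Schip1 was -0.08 and that of Nrg3 -0.22. Tuba1a, an alpha-tubulin of young neurons, was at 314 ± 71.2 CPM in WT and 112 ± 56.6 CPM in KO (SD, n = 3), and Nrg3, a neuregulin, at 1404 ± 767 CPM and 693 ± 190.2 CPM. The mitochondrial ribosomal RNA mt-Rnr2 was at 1924 ± 182 CPM and 1069 ± 323 CPM. It counts towards the mitochondrial UMIs that the rule caps at 1%, so the rule bounds its level. For Nrg3 the groups overlapped, and WT 1 alone was at 2227 CPM.

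In Het the lowest p values belonged to Sox1ot, Setbp1, Schip1, Rhbdl3 and Grik4, of which none passed. Sox1ot, the long non-coding RNA that overlaps Sox1, was at 54.8, 127 and 38.9 CPM in WT, 426, 327 and 267 CPM in Het and 0, 143 and 245 CPM in KO. Its log2 difference of Het from WT was 2.13 (SE 0.48, edgeR adjusted p = 0.377), and the KO embryos, from 0 to 245 CPM, overlapped the WT embryos. Setbp1, a SET-binding protein gene, was at 675, 1085 and 557 CPM in WT and 1589, 1929.9 and 1447 CPM in Het, a log2 difference of 1.07 (SE 0.26, edgeR adjusted p = 0.377). The estimate was 1.87 in run 1 and 0.51 in run 2. Rhbdl3, a rhomboid family gene, was at 60.4 ± 11.1 CPM in WT and 204 ± 29.8 CPM in Het, and Grik4, a kainate receptor subunit, at 269 ± 129 CPM and 110.4 ± 14.1 CPM (SD, n = 3). Without the upper limits on UMIs and genes, which gave 218 members, Sox1ot, Setbp1 and Rhbdl3 were among 8 genes called in Het.

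**Figure D4:**
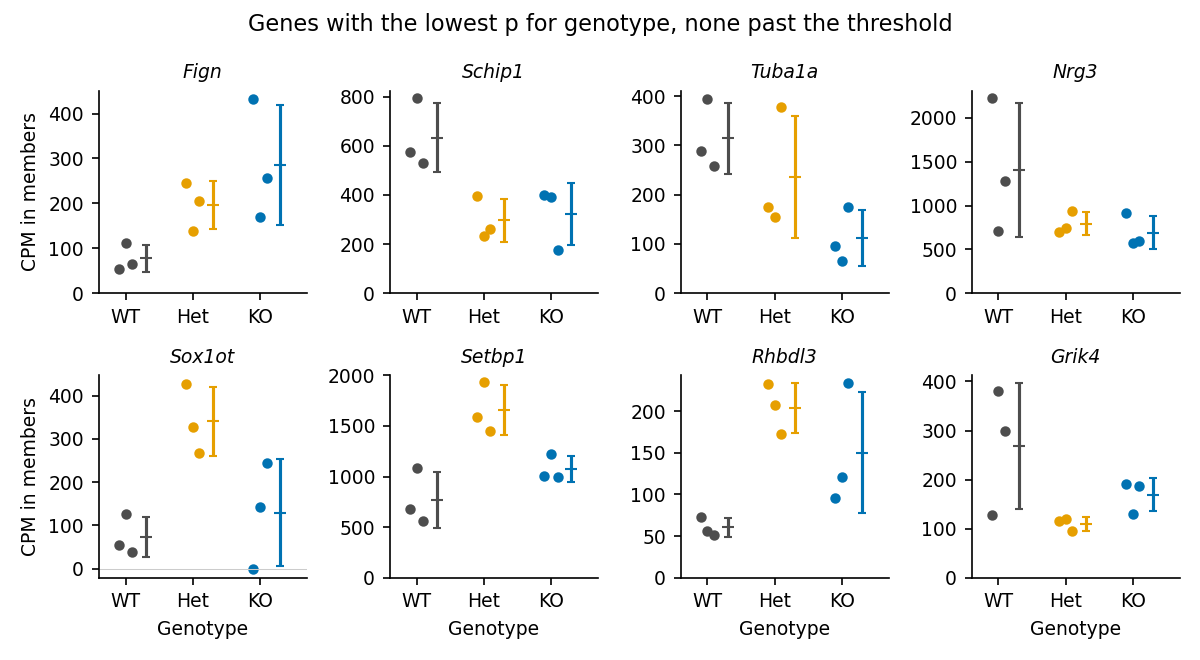
Level in members of each embryo, in CPM, of 8 of the genes named for the lowest p for genotype, with mt-Rnr2 left out. Points are embryos and bars are mean ± SD (n = 3). Sox1ot, Setbp1 and Rhbdl3 stand higher in the 3 Het than in the 3 WT embryos, Schip1 lower, and no gene passed the adjusted threshold. The genes were picked by p, so such separation follows largely from the choice.

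Members were not uniform. Clustering on 1000 variable genes, without the rule genes, Myt1l and sex-linked genes, gave a group of 104 and a group of 65 nuclei. In the larger group Col19a1 was found in 71 nuclei, Lhfpl3 in 102, Pcdh15 in 103 and Tnr, the matrix protein tenascin-R, in 47. In the smaller group they were found in 4, 34, 32 and 2 nuclei. The smaller group carried instead Egfr in 41 nuclei, against 10 in the larger, Gli3, a hedgehog pathway repressor, in 35 against 5, Notch2 in 25 against 4, Dlx1, of ventral forebrain progenitors, in 18 against 3, and the neuregulin gene Nrg1 in 40 against 33. Nrg1 was at 3872 CPM in the smaller group and 156 CPM in the larger. Its level varied widely between embryos, from 410.3 CPM in WT 3 to 9842 CPM in KO 2 in the smaller group and from 24.1 CPM in Het 1 to 429 CPM in WT 2 in the larger, so the ranges met, although within each of the 8 embryos the smaller group was higher. Neither group was given a cell type name.

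The gate genes, which the clustering left out, also differed between the groups. Sox10 was found in 47 of 104 and 10 of 65 nuclei, Olig1 in 77 and 31, and Olig2 in 54 and 49. Pdgfra was found in 97.1% and 96.9%, at 1504 CPM in the larger group and 551 CPM in the smaller. In the 8 embryos with both groups, the Pdgfra level was higher in the larger group in each. The Sox10 and Olig1 levels were higher there in 7 of 8, the other way in Het 3, and the Olig2 level was higher in the smaller group in 7 of 8, the other way in KO 3. Cspg4 was found in 69 and 22 nuclei, Gpr17 in 37 and 2, Itpr2 in 46 and 2, and Erbb3 in 15 and 0. The share of nuclei with at least 2 G2/M UMIs was 72.1% in the larger and 75.4% in the smaller group, and Mki67 was found in 61.5% and 60.0%. Single G2/M genes went both ways. Ccnb1, cyclin B1, stood lower in the smaller group, at 19.3 CPM (4 nuclei) against 51.1 CPM (15 nuclei). Aspm stood higher there, at 246 CPM (25 nuclei) against 204 CPM (26 nuclei). Several S-phase genes stood higher in the smaller group, such as Rrm2, a ribonucleotide reductase subunit, at 101 CPM against 42.6 CPM, the helicase subunit Mcm6 at 135 CPM against 61.0 CPM, and Hells at 275 CPM against 155 CPM, while Pola1 was at 522 CPM against 609 CPM. Median depth was 3228 and 3133 UMIs. Being drawn from the same nuclei as the clustering, these differences carry no test.

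**Figure D5:**
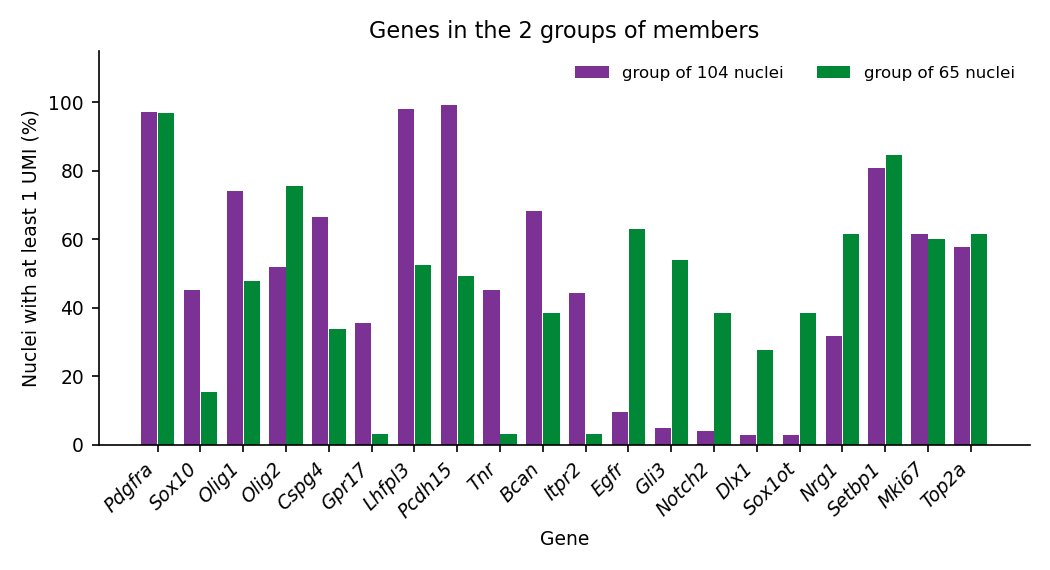
Percent of nuclei with at least 1 UMI of 20 genes in the 2 groups of members (104 and 65 nuclei). Lhfpl3, Pcdh15, Tnr, Gpr17 and Itpr2 stand high in the larger group, Egfr, Gli3, Notch2 and Sox1ot in the smaller, and Pdgfra, Mki67 and Top2a are close in both.

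Both groups were present in 8 of 9 embryos, while the 6 members of KO 1 all fell in the larger. Within embryos the contrast held for Egfr, which was at 0 to 120.6 CPM in the larger group and at 296 to 1646 CPM in the smaller. The smaller group took 25 of 65 members in WT, 23 of 53 in Het and 17 of 51 in KO, with 32.0% to 47.4%, 23.5% to 55.6% and 0% to 38.5% over the embryos, so the genotypes overlapped. It took 17 of the 32 members of run 1 and 48 of the 137 of run 2. Genes with low p for genotype also differed between the groups. Sox1ot was at 493 CPM in the smaller group and 8.51 CPM in the larger, Rhbdl3 at 328 and 29.3 CPM, and Setbp1 at 2101 and 590.2 CPM, whereas Schip1 was at 128 and 585 CPM and Fign at 96.9 and 209 CPM. The part of the group makeup in the genotype estimates was not tested.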

How the data were processed

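Estimated counts per gene and nucleus were deposited for 18 libraries. According to the study's methods, the authors made them with ScaleRna and CellFinder on mm10. Values need not be whole where reads fit several genes, and a UMI counted here as detected at 1 or more. The submitters' processing notes also name Seurat 4.3.0, DESeq2 1.38.3 and Scanpy 1.12.0. Members and gene lists were chosen with earlier results of these data known.

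Counts were summed per embryo over members and both runs, rounded to whole numbers and tested with edgeR 4.0.16 (quasi-likelihood, TMM, genotype only, 9 embryos, filterByExpr), with DESeq2 1.42.0 as an alternative. Member shares were compared with exact permutation tests. Each p reflects 3 embryos a genotype. Pooled levels are CPM. Same-numbered embryos deviated together over all nuclei (correlations of 0.105 to 0.282 for every pair), so a fit with the number as a block was also made. Over members alone the correlations of same-numbered embryos ran from -0.016 to 0.102. Levels are not divided by gene length.

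Libraries of different embryos shared 3429 barcodes and the 2 runs of an embryo 311, but no barcode was shared among members. No doublet caller was run, and an alternative left out members with any of 21 neuron, vascular and immune genes. Clustering used Scanpy 1.11.5 (20 components, 15 neighbours, Leiden at 0.5). Of 55335 genes, 54587 matched GENCODE vM21 on GRCm38 by identifier, the source of coordinates. Strand use in counting is not stated in the sources used, so overlapping and antisense genes such as Sox1ot are uncertain. Schip1 overlaps Iqschfp on the same strand, so its level is uncertain as well. Genes named are the rule genes, Myt1l, the 15 highest and 10 lowest ratios among genes of at least 50 CPM with 1 direction in all 9 embryos, up to 5 highest and 3 lowest of each list, and the 5 lowest p per contrast. Other genes named for the groups and lists were chosen after their values were seen. A few list genes are not reported here.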

Additional observations from a re-analysis of the deposited data

How the results depend on the processing

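The difference in member share of KO from WT kept its direction under all 16 alternatives. Of these, the block and the detection of any value above 0 left the estimate as it was, at -0.0231 percentage points. It was -0.00387 points in run 1 alone and ran from -0.0360 to -0.00752 points when 1 embryo was left out. The share difference of Het from WT turned to 0.0508 points in run 1 alone and ranged from -0.0161 to 0.00467 points with 1 embryo left out. The G2/M difference of KO from WT turned to -2.78 points in run 1 and ranged from -3.26 (without KO 1) to 19.8 points. That of Het from WT was -0.929 points with at least 3 gate UMIs and -7.94 points in run 1, and ranged from -0.0227 (without WT 2) to 8.50 points. A block for the replicate number gave p = 0.25 for the KO share and p = 0.75 for the Het share (exact permutation test, smallest possible 0.25). Whether equal numbers mark a true pair is not stated. The block left 0 genes called in both contrasts, so it changed no call.

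Without the upper limits 1 gene was called in KO and 8 in Het, without a filter on low counts 2 (Reln and Xist, both lower) and 5 (Gm29478, Nrg1, Reln, Sox1ot and Xist), and without members holding neuron, vascular or immune genes (86 members left) 1 in KO (Nrg1). These names were read after the values were seen. Reln in members was at 859 CPM in WT 2 and at most 128 CPM in the other embryos, and Xist is expressed in females, whose share by genotype was not tested. The other alternatives called 0. Nrg3 turned to 0.10 in run 1. Myt1l in Het was -0.46 without upper limits and ran from -0.30 to 0.69 with 1 embryo left out. Sox1ot in Het was called without upper limits (2.83) and without the filter (2.11), and Setbp1 (1.18) and Rhbdl3 (2.18) without upper limits. The cause was not tested. At a Leiden resolution of 1 there were 6 groups of at least 20 nuclei. With 4 X-linked genes kept, an alternative chosen after seeing the data, 2 groups of 88 and 81 nuclei were found, to which 16 nuclei had moved from the larger to the smaller. With 6 members KO 1 limits the comparisons of KO.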
